A study of Mus musculus with 6 samples.

Results

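The 10 genes described here encode the enzymes that finish digestion at the surface of the small intestine: the glycosidases lactase (Lct), sucrase-isomaltase (Sis), maltase-glucoamylase (Mgam) and trehalase (Treh), the peptidases Anpep, Enpep, Dpp4, Mep1a and Mep1b, and the intestinal alkaline phosphatase Alpi, which removes phosphate groups. They were chosen by name for their function, with earlier results of these data known. Each symbol matched 1 row of the deposited table of 27179 genes. All 10 were among the 13052 genes tested. The libraries came from organoids, budding epithelial cultures in Matrigel, of wild-type (WT) mouse small intestine. The 2 groups were organoids cultured with the thyroid hormone T3, at 1e-07 M over 17 h (3 libraries) and organoids given the vehicle for the same time (3 libraries). Both groups were of the same genotype and grown in Intesticult medium. Nothing in the labels tells whether a group's libraries stem from different cultures or mice, and the p-values therefore reflect library-to-library spread that may be technical.

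Brush border hydrolases are anchored in the microvilli of absorptive enterocytes with their active sites facing the lumen, where they cut disaccharides, short starch chains and peptides into units that transporters can take up. Their genes are switched on as cells leave the crypt and mature on the villus, under transcription factors such as Cdx2, Hnf4a and Gata4. In rodents lactase is the main disaccharidase of the suckling period, and sucrase-isomaltase and trehalase appear at weaning, a change that thyroid hormone and glucocorticoids are known to influence.

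The T3 libraries summed to 29510422 to 29974091 normalized reads over all genes and the vehicle libraries to 28197080 to 28611883. T3 replicate 3 and vehicle replicate 1 stood apart from the other libraries of their groups. The mean chi-square per gene would be about 1 for unscaled counts that differ by sampling alone. Depth before scaling is unknown, so the pairs are only compared with each other. The chi-square was 14.1 and 15.2 in the pairs with T3 replicate 3 against 5.13 between T3 replicates 1 and 2. It was 8.23 and 10.1 in the pairs with vehicle replicate 1 against 4.94 between vehicle replicates 2 and 3. Of the 10 genes below, 6 were called higher and 3 lower without T3 replicate 3, and 6 and 2 without vehicle replicate 1. Enterocyte genes were abundant: the 6 markers listed for this cell type summed to 48393 to 54794 normalized reads with T3 and 39786 to 44112 with vehicle. Most markers of cells outside the epithelium were near 0. The 10 fibroblast and smooth muscle markers summed to 82 to 89 reads with T3 and 83 to 127 with vehicle, mostly Pdgfrb, and Lum was at 0 in every library. The 4 endothelial markers summed to 19 to 26 with T3 and 27 to 47 with vehicle, with Cdh5 and Kdr at 0. The 6 immune markers summed to 36 to 60 with T3 and 44 to 53 with vehicle, mostly Cd68, with Adgre1 and Itgax at 0.

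Of the 10 genes, 6 rose, 2 fell and 2 were not called (limma with Benjamini-Hochberg adjustment over all genes tested, adjusted p under 0.05). Over all genes tested 44.8% were called, 24.0% higher and 20.8% lower. The rises were Lct, Sis, Alpi, Mgam, Enpep and Mep1b, the falls Treh and Mep1a, and Anpep and Dpp4 were not called. The median log2 fold change (T3 over vehicle) was 0.92 for the 10 genes and -0.01 for all genes tested. A rise of at least 2-fold was called for 4 of the 10, Lct, Sis, Alpi and Mgam, against 3.45% of all genes tested. That count was 6 without T3 replicate 2, with Enpep and Mep1b added, and 3 without T3 replicate 1, T3 replicate 3 or vehicle replicate 2. The groups did not overlap in 9 of the 10, all but Anpep, against 54.9% of all genes tested. The authors' deposited table called 8 of the 10 at the same threshold, against 35.1% of the genes it tested. Because the 10 genes were chosen with earlier results of these data known, these counts and medians describe them and are no test. In bulk RNA a larger share of cells that express a gene and more RNA per cell cannot be told apart.

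The DNA just before the transcription start is shown for the glycosidase genes, 3 of which rose together while Treh fell. Each line gives the 250 bases before the RefSeq start, 5′ to 3′ on the strand of the gene, in GRCm38.p6. Capitals mark the letters TTTAT and TTTAC on either strand, short cores that Cdx factors can bind. Binding in these organoids was not tested. In mouse and human Cdx2 is known to bind the proximal Sis promoter, and in the pig it binds an element of the lactase promoter that holds TTTAC.
Lct, chr1:128328319-128328568, minus strand: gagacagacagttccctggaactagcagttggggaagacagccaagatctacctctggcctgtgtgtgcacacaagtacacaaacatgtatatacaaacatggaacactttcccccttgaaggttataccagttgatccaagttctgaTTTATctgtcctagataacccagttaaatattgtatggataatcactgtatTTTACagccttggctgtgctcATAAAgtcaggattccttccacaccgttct
Sis, chr3:72967864-72968113, minus strand: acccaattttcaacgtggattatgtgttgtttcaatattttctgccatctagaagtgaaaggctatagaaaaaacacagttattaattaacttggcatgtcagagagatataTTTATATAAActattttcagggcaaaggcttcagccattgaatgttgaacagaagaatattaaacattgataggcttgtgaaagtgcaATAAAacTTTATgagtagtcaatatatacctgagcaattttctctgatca
Mgam, chr6:40628581-40628830, plus strand: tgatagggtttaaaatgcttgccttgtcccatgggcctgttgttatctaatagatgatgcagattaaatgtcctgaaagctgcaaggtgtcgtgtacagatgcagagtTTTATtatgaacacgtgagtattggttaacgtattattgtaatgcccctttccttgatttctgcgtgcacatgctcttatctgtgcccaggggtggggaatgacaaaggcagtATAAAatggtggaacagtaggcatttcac
Treh, chr9:44672983-44673232, plus strand: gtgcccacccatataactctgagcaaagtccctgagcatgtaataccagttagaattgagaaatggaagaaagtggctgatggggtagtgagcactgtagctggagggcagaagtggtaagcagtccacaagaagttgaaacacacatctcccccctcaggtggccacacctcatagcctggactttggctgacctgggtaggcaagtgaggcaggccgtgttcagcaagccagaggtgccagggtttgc

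The Sis window held 4 matches to TTTAT, a pair at 50 to 46 and 43 to 39 bases before the start on opposite strands and an adjoining pair at 138 to 134 and 133 to 129 bases. The Lct window held TTTAT at 102 to 98 bases, its reverse complement at 30 to 26 bases and TTTAC at 51 to 47 bases. Mgam held TTTAT at 142 to 138 bases and its reverse complement at 29 to 25 bases, within TATAAAA, and Treh held no match to either. A TATA box can hold the same letters, so a match is not by itself a Cdx site. Over the 9 genes searched, TTTAT on either strand was found in 6, Lct, Sis, Mgam, Alpi, Dpp4 and Enpep, against 37.3% of the 32851 windows of the table. TTTAC on either strand was found in 1 of the 9, Lct, against 28.3% of all windows. GC content of these windows was 31.6% for Sis, 42.8% for Lct, 42.4% for Mgam and 53.2% for Treh, against a median of 52.4% over all windows.

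Other motifs were searched on both strands in the same windows. The core bound by GATA factors, GATAA, which on the opposite strand can overlap the Cdx core, was found in 5 of 9, against 22.6% of all windows. The nuclear receptor half-site AGGTCA, the building block of thyroid hormone response elements, was found in 1 of 9, at 60 to 55 bases before the start of Treh, against 14.0%. The direct repeat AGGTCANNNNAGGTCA was in none of the 9 windows and in 0.0152% of all windows. Such matches describe the letters in a short window only. The RefSeq start of Sis lies 997 bases before the 5′ end of the gene model used for the deposited values, and that of Anpep 5858 bases before it, so these windows do not adjoin those models.

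**Figure D1:**
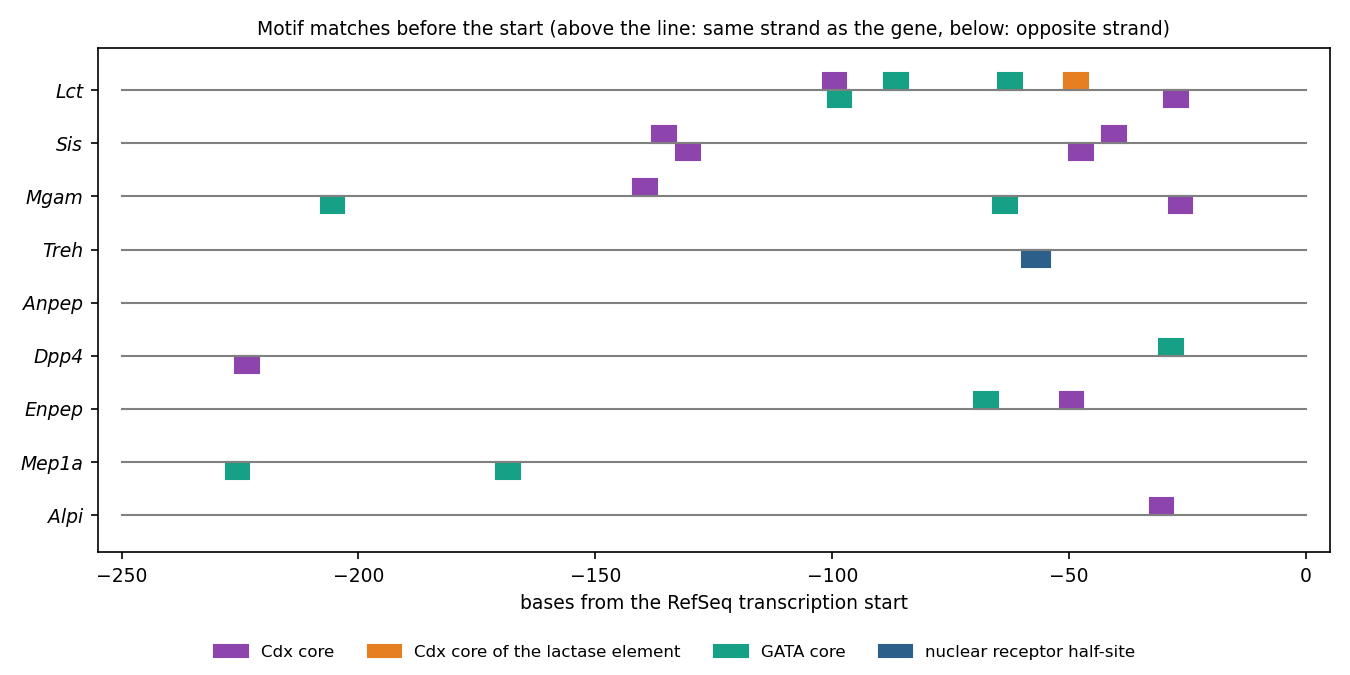
Motif matches in the 250 bases before the RefSeq transcription start of 9 of the genes. The x axis gives bases from the start, blocks above a line lie on the strand of the gene and blocks below it on the opposite strand, and colours give the motif. Matches to the letters TTTAT, the Cdx core, are found in 6 of the 9 windows, and those of Treh, Anpep and Mep1a hold none. Binding was not tested.

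Lct, Sis and Mgam, the glycosidases for milk sugar, sucrose and starch fragments, were each higher in every T3 library than in any vehicle library. Lct (gene ID 226413, mm10 chromosome 1, 128284764 to 128328318, 17 exons), the only enzyme of the mouse gut that splits lactose at the brush border, had 4938, 4131 and 4919 normalized reads in T3 replicates 1 to 3 against 1431, 1541 and 1578 in vehicle replicates 1 to 3. Its rise of 3.07-fold (log2 1.62 ± 0.07 SE, adjusted p = 1.66e-07 by limma) was the largest of the 10 genes and the 184th largest log2 fold change of the genes tested. The libraries of each group lay close together, with a coefficient of variation of 9.88% with T3 and 5.04% with vehicle.

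Sis (gene ID 69983, chromosome 3, 72888560 to 72966866, 47 exons), which splits sucrose and the branch points of starch, had 39662, 37326 and 35833 reads with T3 against 14507, 16798 and 15394 with vehicle. It rose 2.42-fold (log2 1.27 ± 0.06 SE, adjusted p = 2.79e-07), with coefficients of variation of 5.13% with T3 and 7.42% with vehicle. Mgam (gene ID 232714, chromosome 6, 40628831 to 40769123, 48 exons), the relative of sucrase-isomaltase that frees glucose from the ends of starch chains, had 30044, 28597 and 33997 reads with T3 against 17361, 12860 and 14162 with vehicle. Its rise was 2.10-fold (log2 1.07 ± 0.10 SE, adjusted p = 2.76e-05), and vehicle replicate 1 was its highest vehicle library.

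Treh (gene ID 58866, chromosome 9, 44673238 to 44686304, 15 exons), which splits trehalose, the sugar of fungi and insects, went the other way. It had 361, 252 and 289 reads with T3 against 383, 411 and 468 with vehicle. The groups came close, 361 in T3 replicate 1 beside 383 in vehicle replicate 1, but did not overlap. Treh fell 1.41-fold (log2 -0.49 ± 0.13 SE, adjusted p = 0.0117). Without vehicle replicate 3 the fall was not called (log2 -0.41, adjusted p = 0.0566).

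The 3 exopeptidases did not move together. Anpep (gene ID 16790, chromosome 7, 79821803 to 79842352, 20 exons), aminopeptidase N, which removes neutral amino acids from peptide ends, had 12332, 8749 and 14887 reads with T3 against 12502, 13845 and 13948 with vehicle. T3 replicate 2 was below and T3 replicate 3 above every vehicle library. The log2 fold change was -0.20 ± 0.15 SE (95% interval -0.54 to 0.15, adjusted p = 0.330), so a change in either direction within that interval was not resolved. Single libraries decided this value: it was -0.37 and called without T3 replicate 3 (adjusted p = 0.0315) and 0.014 without T3 replicate 2 (adjusted p = 0.908).

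Enpep (gene ID 13809, chromosome 3, 129269177 to 129332749, 20 exons), aminopeptidase A, which removes acidic amino acids and acts on angiotensin, had 2260, 1530 and 2551 reads with T3 against 1006, 1123 and 1143 with vehicle. The T3 libraries were all higher, and T3 replicate 2 was again the lowest of them. Enpep rose 1.90-fold (log2 0.92 ± 0.15 SE, adjusted p = 0.000972). Dpp4 (gene ID 13482, chromosome 2, 62330073 to 62412231, 26 exons), dipeptidyl peptidase 4, which removes dipeptides that end in proline or alanine and inactivates incretin hormones, had 3920, 3929 and 3867 reads with T3 against 4234, 4302 and 3965 with vehicle. Every T3 library was below every vehicle library, but the difference was small, log2 -0.09 ± 0.04 SE (95% interval -0.19 to -0.00035, adjusted p = 0.0950).

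Dpp4 was called lower with upper-quartile scaling (log2 -0.14, adjusted p = 0.0201), with equal column totals (log2 -0.16, adjusted p = 0.0119) and without vehicle replicate 3 (log2 -0.13, adjusted p = 0.0266). These scalings moved the median of all genes by -0.05 and -0.07. An antisense gene, Gm13561, shares 232 exon bases with Dpp4 in GENCODE M21, and no source used here states whether counting was by strand, so reads of both may be mixed.

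The subunits of meprin went in opposite directions. Meprins are zinc endopeptidases that cut inside peptide chains, built from an alpha subunit that can be secreted and a beta subunit that is held in the membrane. Mep1b (gene ID 17288, chromosome 18, 15 exons), the beta subunit, had 932, 704 and 1086 reads with T3 against 451, 473 and 498 with vehicle, and rose 1.88-fold (log2 0.91 ± 0.13 SE, adjusted p = 0.000398). Mep1a (gene ID 17287, chromosome 17, 43474329 to 43502773, 14 exons), the alpha subunit, had 471, 389 and 532 reads with T3 against 632, 636 and 549 with vehicle. The closest libraries were T3 replicate 3 at 532 and vehicle replicate 3 at 549. Mep1a fell 1.31-fold (log2 -0.39 ± 0.11 SE, adjusted p = 0.0169), a call lost without vehicle replicate 2 (adjusted p = 0.0602) and with no variance trend (adjusted p = 0.0570).

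Alpi (gene ID 76768, chromosome 1, 87098002 to 87101606, 11 exons), whose enzyme also detoxifies bacterial lipopolysaccharide, had 8822, 6127 and 4725 reads with T3 against 3183, 2460 and 2802 with vehicle. All T3 libraries were higher, but their coefficient of variation, 31.8%, was the widest of the 10 genes. Alpi rose 2.27-fold (log2 1.18 ± 0.19 SE, adjusted p = 0.000689). Its neighbours on chromosome 1, Akp3, the alkaline phosphatase of the upper gut, and Alppl2 are close in sequence: 2.40% of the 50-base words in Alpi transcripts also occur in another gene, as do 1.45% in Treh, 1.30% in Mep1b, 0.295% in Mgam, 0.135% in Sis and 0 in the other 5 of the 10. Akp3 had 23904, 16182 and 11913 reads with T3 against 4003, 2521 and 2852 with vehicle and rose 5.43-fold (adjusted p = 2.56e-05). Alppl2 was low, 50, 38 and 21 reads with T3 against 8, 9 and 4 with vehicle, and also rose (adjusted p = 0.00134). Summed over the 3 genes, the log2 fold change was 1.97 ± 0.21 SE (adjusted p = 5.89e-05), a sum that does not depend on how reads were split between them. Alpi and Alppl2 also share words with Akp-ps1, which is outside the sum. Reads matching several genes, if left uncounted, would be missing from it.

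**Figure D2:**
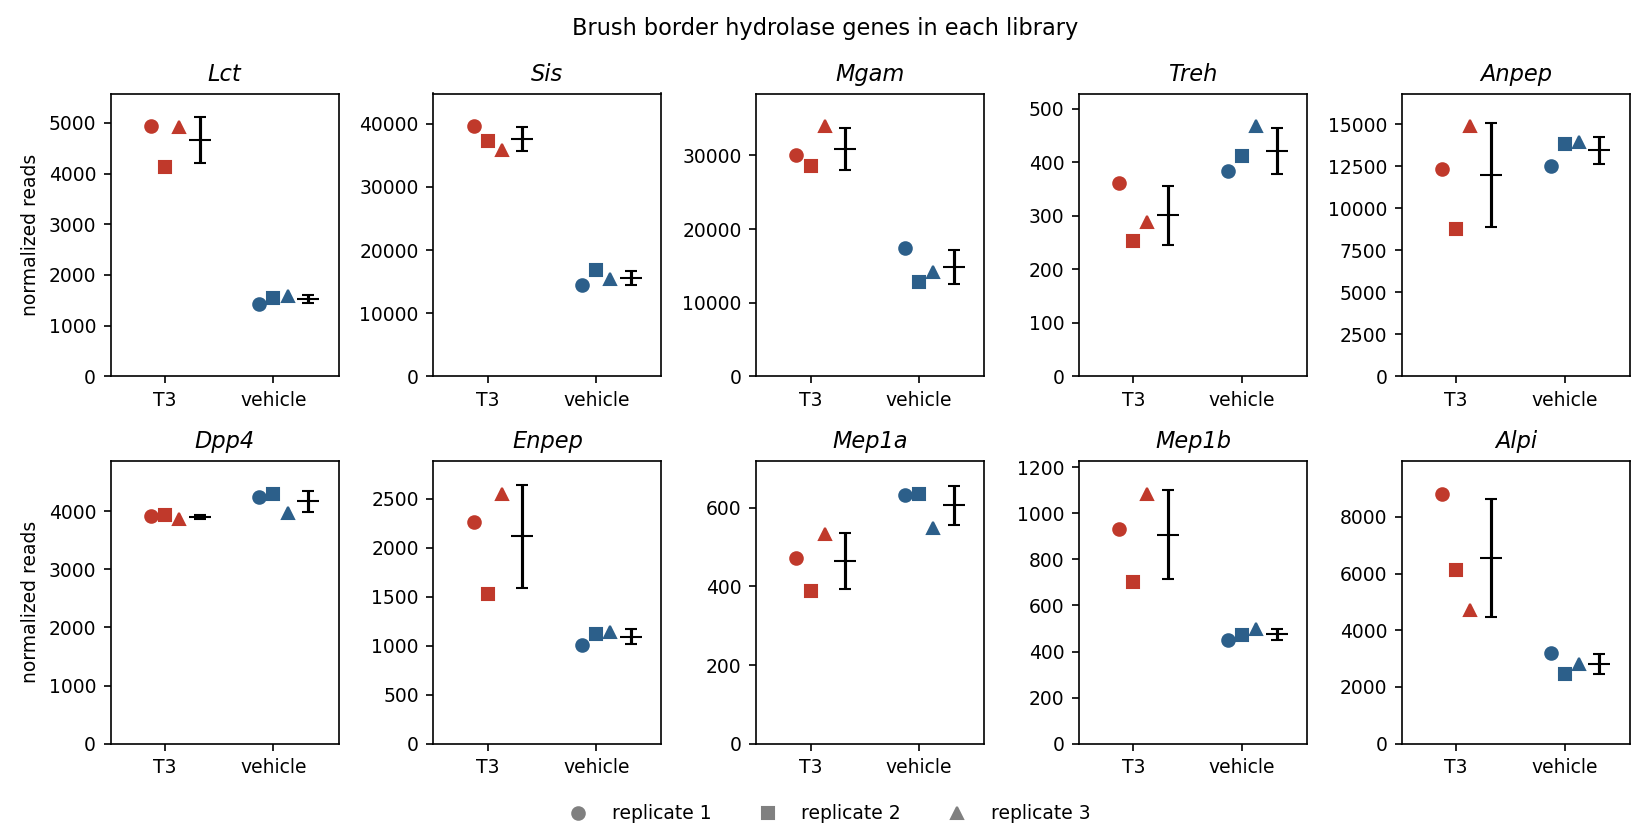
Normalized reads of the 10 genes in each library, T3 left (red) and vehicle right (blue), with replicates 1 to 3 as circle, square and triangle. The black bar and whiskers give the mean and SD (n = 3 each). Lct, Sis, Mgam, Enpep, Mep1b and Alpi have all T3 libraries above all vehicle libraries, Treh, Dpp4 and Mep1a all below, and Anpep has T3 libraries on both sides.

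Differences between related enzymes were tested as ratios within a library, which do not depend on the scaling between libraries. With 3 libraries against 3 an exact permutation test (two-sided) cannot give a p below 0.1, so no ratio could pass 0.05. 6 ratios were compared, and 5 did not overlap between the groups, each with p = 0.1 (adjusted p = 0.12 over the 6, exact permutation test).

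Reads of Mep1b were 1.98, 1.81 and 2.04 times those of Mep1a with T3 against 0.714, 0.744 and 0.907 times with vehicle. Per kb of exon the beta subunit stood at 397 ± 84.1 and the alpha subunit at 159 ± 24.5 with T3, and both at 207 with vehicle (± 10.3 and ± 16.8, SD, n = 3 each). The ratio of Enpep to Anpep was 0.183, 0.175 and 0.171 with T3 against 0.0805, 0.0812 and 0.0820 with vehicle. This ratio varied little within either group although the coefficients of variation among the T3 libraries were 25.7% for Anpep and 24.9% for Enpep. Lct relative to Sis was 0.125, 0.111 and 0.137 with T3 against 0.0987, 0.0918 and 0.103 with vehicle, a 1.27-fold higher ratio.

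Mgam relative to Sis was 0.758, 0.766 and 0.949 with T3 against 1.20, 0.766 and 0.920 with vehicle and overlapped (p = 0.6, exact permutation test). Set against villin (Vil1), an actin-bundling protein of the microvillus core whose own level rose 1.56-fold, Lct was 1.97-fold higher and Anpep 1.79-fold lower with T3. The Anpep to Vil1 ratio was 0.447, 0.333 and 0.568 with T3 and 0.754, 0.823 and 0.778 with vehicle.

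The T3 libraries differed among themselves in several of these genes. The median coefficient of variation over the 10 genes was 17.0% with T3 and 7.10% with vehicle, beside 4.11% with T3 and 4.40% with vehicle over 10353 genes with a mean of at least 100 in both groups. A wide spread with T3 was also seen in some other lists. The median coefficient of variation was 15.3% with T3 and 10.5% with vehicle for other surface hydrolases, and 14.8% and 6.40% for enterocyte markers. For Paneth cell markers it was 18.6% and 8.59%, and for enteroendocrine markers 19.6% and 14.3%. In both of these lists T3 replicate 3 was the lowest T3 library for all 4 genes. Other lists spread less with T3: 8.22% for product transporters, 5.16% for brush border structure, 4.17% for the transcription factors and 3.21% for intracellular peptidases. The ratio of highest to lowest library was wider with T3 than with vehicle in 7 of the 10, the exceptions being Sis, Mgam and Dpp4. T3 replicate 2 was the lowest T3 library for Lct, Mgam, Treh, Anpep, Enpep, Mep1a and Mep1b, that is 7 of 10, against 35.7% of all genes tested. T3 replicate 3 was the lowest for the other 3, Sis, Dpp4 and Alpi, against 39.9% of all genes tested. For Mgam, Anpep, Enpep, Mep1a and Mep1b the highest was T3 replicate 3. Sis and Alpi followed another order, highest in T3 replicate 1 and lowest in T3 replicate 3, and Akp3 and Alppl2 shared it. These orders were noticed in the data, and what moves with them was not tested.

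**Figure D3:**
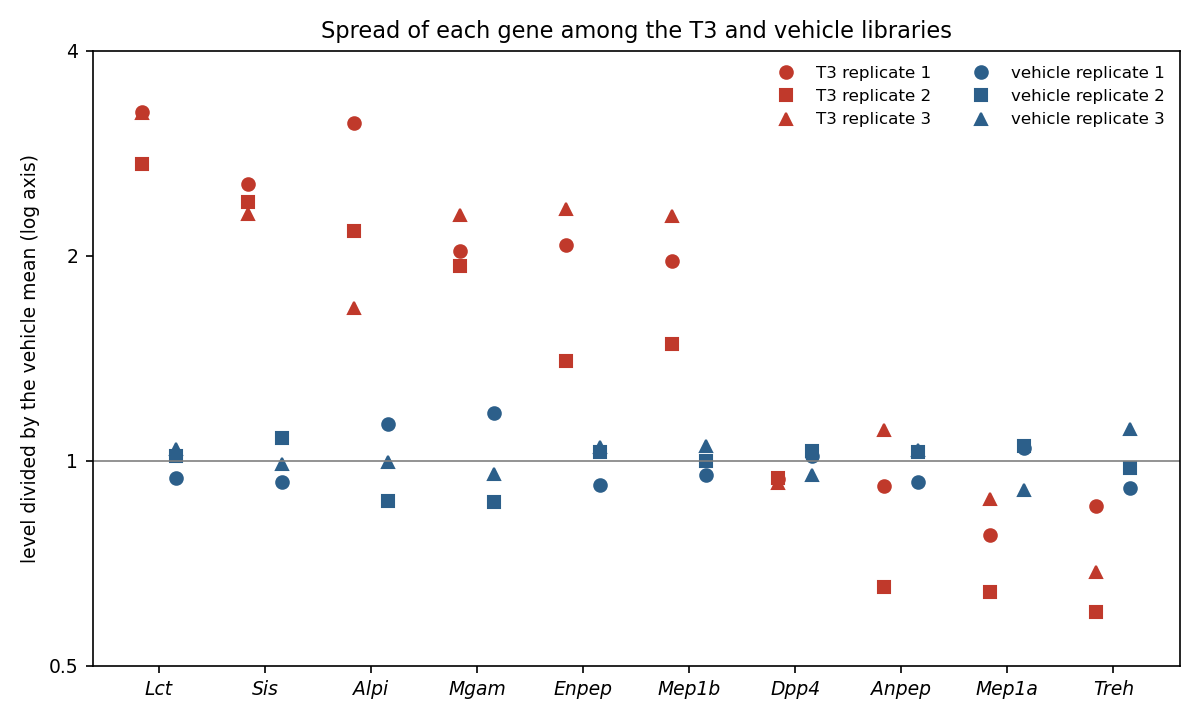
Level of each gene divided by its vehicle mean (log axis) in the T3 libraries (red) and the vehicle libraries (blue), with replicates 1 to 3 as circle, square and triangle. The square of T3 replicate 2 is the lowest red point in 7 of the 10 genes, and the T3 points of Alpi run in the order replicate 1, 2, 3.

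Per exon length the order of the genes changed between the groups. With T3 it was Sis (6388 ± 328 normalized reads per kb, SD, n = 3), Mgam (4759 ± 431), Anpep (3503 ± 901), Alpi (2806 ± 891), Lct (756 ± 74.7), Dpp4 (619.8 ± 5.32), Enpep (502 ± 125), Mep1b (397 ± 84.1), Mep1a (159 ± 24.5) and Treh (147 ± 27.1). With vehicle it was Anpep (3924 ± 236), Sis (2644 ± 196), Mgam (2280.3 ± 357), Alpi (1205 ± 155), Dpp4 (661 ± 28.3), Enpep (259 ± 17.6), Lct (246 ± 12.4), Mep1b (207 ± 10.3), Mep1a (207 ± 16.8) and Treh (206 ± 21.2). Library ranges of neighbours overlapped with T3 between Anpep and Alpi, Enpep and Mep1b, and Mep1a and Treh. With vehicle they overlapped between Sis and Mgam, Enpep and Lct, Mep1b and Mep1a, and Mep1a and Treh.

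Anpep was thus the most abundant transcript per length in the vehicle libraries and came after Sis and Mgam in the T3 libraries, while Sis and Mgam together made up 55.8% ± 3.16 of the per-length sum of the 10 genes with T3 and 41.6% ± 1.44 with vehicle (SD, n = 3 each). Anpep made up 17.4% ± 3.59 with T3 and 33.1% ± 2.12 with vehicle. The reads of the 10 genes summed to 0.334% ± 0.0232 of all normalized reads with T3 and 0.193% ± 0.00191 with vehicle, given without a test because the genes were chosen with results known.

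**Figure D4:**
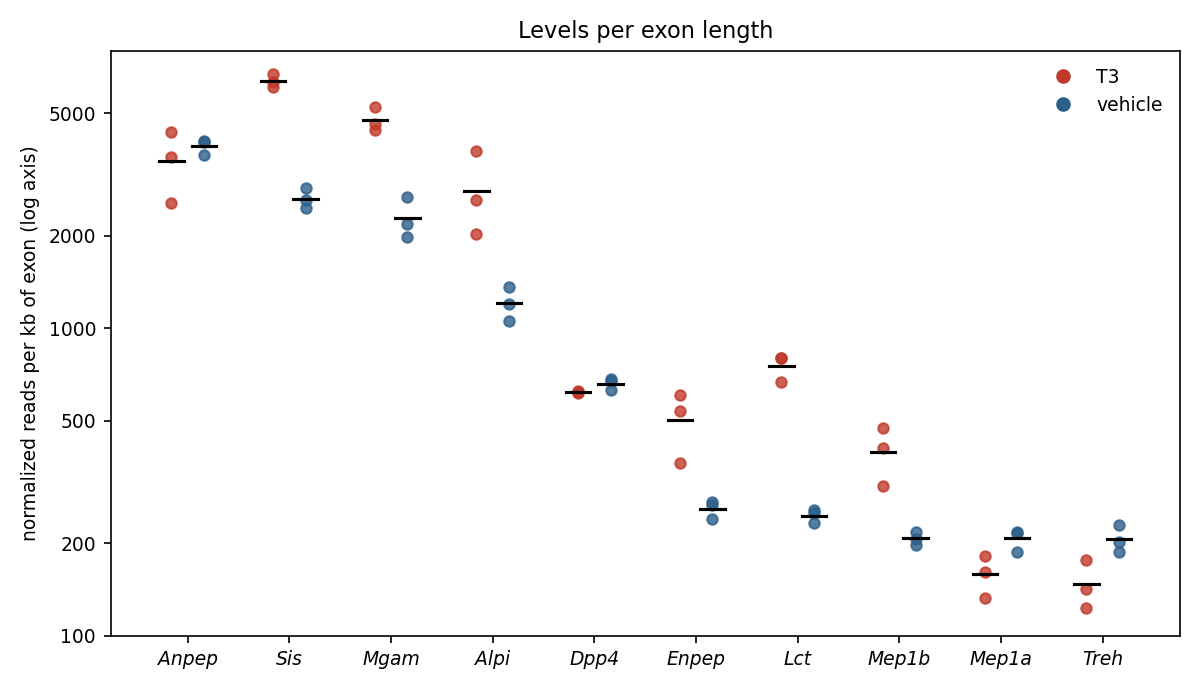
Normalized reads per kb of exon (log axis) of the 10 genes in the T3 libraries (red, left of each pair) and the vehicle libraries (blue), ordered by the vehicle mean, with a bar at each mean. Anpep leads in the vehicle libraries and Sis in the T3 libraries, and Lct passes Enpep and Dpp4 with T3.

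Other hydrolases of the cell surface also split. Of 18 such genes 15 were tested, and 6 rose, 4 fell and 5 were not called, with a median log2 fold change of 0.22. Of all genes tested 24.0% were called higher and 20.8% lower. Cpm, carboxypeptidase M, which removes basic residues from the carboxyl end, rose 6.63-fold, to 2786 ± 205 normalized reads with T3 against 419 ± 19.3 with vehicle (adjusted p = 3.20e-09). Naaladl1, in the rat a peptidase of the ileal brush border, rose 1.84-fold, and Akp3 is described above. Xpnpep2 (1.38-fold higher) and Nt5e, at only 22.0 ± 2.65 reads with T3 and 6.33 ± 3.06 with vehicle, complete the rises with Alppl2. Asah2, the neutral ceramidase of the brush border, fell 1.44-fold, to 822 ± 74.7 reads with T3 against 1182 ± 71.5 with vehicle (adjusted p = 0.000335). Mme, Enpp3 and Vnn1 also fell, by less than 1.5-fold, but the call of Mme was lost in 5 of 15 alternatives, the sets without vehicle replicate 1 or 3 among them, and that of Vnn1 without T3 replicate 1 or 2 or vehicle replicate 2 or 3, so 2 of the 4 falls were left without vehicle replicate 3. Xpnpep2, Nt5e, Mme, Enpp3 and Vnn1 are named after their values were seen. Folh1 was at 0 in every library, and Tmprss15, enteropeptidase, which activates trypsinogen in the duodenum, had 4 reads in T3 replicate 3 and none elsewhere.

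**Figure D5:**
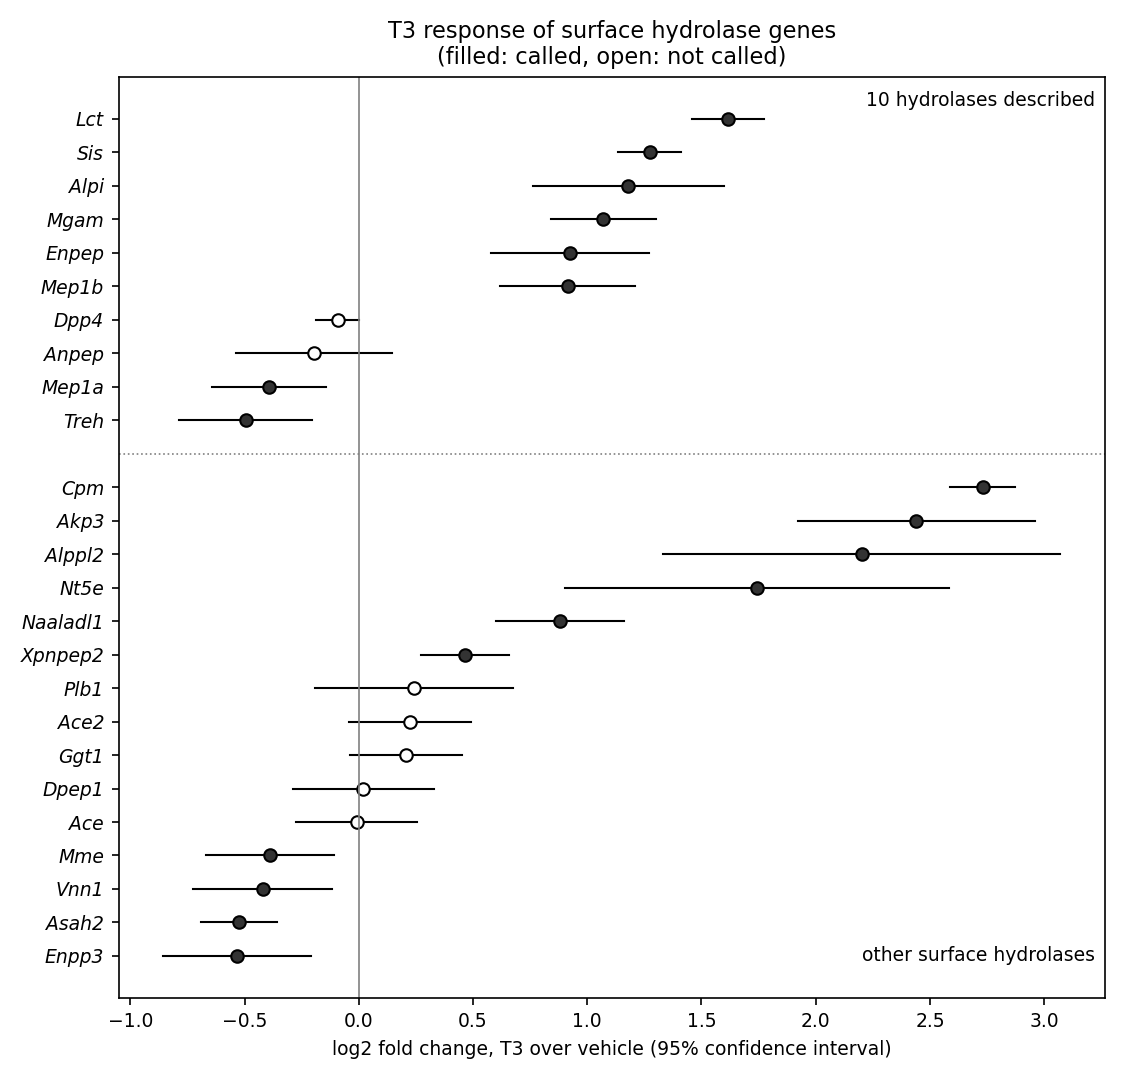
Log2 fold change (T3 over vehicle) with its 95% confidence interval for the 10 genes (upper block) and 15 other surface hydrolases (lower block), each sorted by size. Filled points passed an adjusted p under 0.05. The 10 genes run from 1.62 for Lct to -0.49 for Treh, and Cpm stands at 2.73.

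Enzymes that carry out like reactions inside the cell had medians nearer 0. Of 13 intracellular peptidases 5 rose, 1 fell and 7 were not called (median log2 fold change 0.09), so the 6 of 13 called were close to the 44.8% of all genes tested. Xpnpep1, a proline aminopeptidase, rose 2.21-fold, Rnpep 1.62-fold and Dnpep, an aspartyl aminopeptidase, 1.18-fold, and Thop1, an endopeptidase of the cytosol, fell 1.30-fold. Of 12 intracellular glycosidases, mostly lysosomal, 6 rose, 2 fell and 4 were not called (median 0.18), beside the same 44.8%. However, 3 rose without T3 replicate 1, and 4 fell with either other scaling. Fuca1, a fucosidase, rose 1.52-fold and Gusb 1.31-fold. Gaa, the lysosomal acid alpha-glucosidase and a relative of Sis and Mgam, fell 1.26-fold. Glb1, the lysosomal beta-galactosidase, which also acts on lactose-like bonds, had 3520 ± 241 reads with T3 and 3785 ± 139 with vehicle (adjusted p = 0.140) beside the 3.07-fold rise of Lct. It was called lower with upper-quartile scaling (adjusted p = 0.0373) and equal column totals (adjusted p = 0.0175).

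The structures and transporters that serve the same membrane were mostly higher. Of 11 genes of the brush border structure 9 rose and none fell, with a median of 0.59, although 1 fell with either other scaling. Myo1a, the myosin that ties the core bundle to the membrane, rose 2.14-fold, Pls1, an actin bundler, 2.05-fold and Myo7b 1.88-fold. Of 11 transporters for the products of these enzymes 8 rose and 1 fell (median 0.52). Beside both lists, 24.0% of all genes tested were called higher and 20.8% lower. Slc2a2, for glucose and fructose, rose 4.40-fold and Slc5a1, for glucose and galactose, 2.23-fold. Slc7a9, for cystine and basic amino acids, rose 2.20-fold and Slc7a8 1.53-fold. Slc1a1, a glutamate and aspartate transporter named after its values were seen, fell 1.36-fold, to 526 ± 36.7 reads with T3 against 718 ± 47.0 with vehicle (adjusted p = 0.000939), while Enpep, which frees acidic amino acids, rose.

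Of 17 transcription factors linked to enterocyte genes 16 were tested, 9 rose and 3 fell (median 0.13). Of all genes tested 24.0% were called higher and 20.8% lower. Most changes in these factors were small. Maf, a factor of enterocyte maturation, rose 2.94-fold, to 278 ± 21.9 reads with T3 against 95 ± 20.4 with vehicle, Elf3 1.98-fold, Hnf4g 1.53-fold and Cdx2 1.38-fold. Gata4 rose 1.12-fold. Hnf4a rose 1.08-fold, a call lost in 10 of 15 alternatives (adjusted p up to 0.336), both other scalings and the sets without T3 replicate 1 or 2 or vehicle replicate 1 or 2 among them. Prdm1, a repressor that holds back the adult enzymes Sis and Treh in the suckling mouse gut, fell 1.53-fold at a very low level, 24.7 ± 1.15 reads with T3 against 38.3 ± 4.51 with vehicle (adjusted p = 0.0255), a call lost without T3 replicate 1 or 2, without vehicle replicate 2 or 3 and with a replicate block. Creb3l3 and Gata5, named after their values were seen, also fell.

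Of 8 genes of the suckling enterocyte other than Lct 5 were tested, 1 rose and 1 fell, with a median of -0.11. That median is the value of Glb1, which also stands in the list of intracellular glycosidases above. The 2 of 5 called were close to the 44.8% of all genes tested, and 2 fell with either other scaling. Fcgrt, the neonatal Fc receptor that carries maternal antibody across the gut, rose 5.00-fold, to 628 ± 26.2 reads with T3 against 126 ± 19.9 with vehicle (adjusted p = 2.83e-07), and Amn, part of the receptor for vitamin B12, fell 1.58-fold, to 983 ± 26.6 reads with T3 against 1557 ± 159 with vehicle. Lrp2, Nox4 and Dab2, which serve protein uptake or mark the suckling gut, were too low to be tested.

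General enterocyte markers did not move as one beside these changes. Of 6 such markers 3 rose, Vil1, Apoa1 (3.08-fold) and Krt20 (1.37-fold), and Fabp2 fell 1.59-fold, to 5001 ± 657 reads with T3 against 7892 ± 286 with vehicle, while Fabp1 and Apoa4 were not called. The rise of Krt20 was lost in 6 of 15 alternatives (adjusted p up to 0.104), the sets without T3 replicate 1, T3 replicate 3 or vehicle replicate 1 among them. All 4 stem cell markers fell, and their reads summed to 20840 to 23046 with T3 and 49837 to 57082 with vehicle. The 4 Paneth cell markers summed to 95376 to 121047 reads with T3 and 60060 to 64726 with vehicle. Itln1 made most of that difference, at 80652 ± 8932 with T3 and 32293 ± 1056 with vehicle, and Mmp7 also rose. Lyz1, at 8951 ± 1820.3 with T3 and 10696 ± 722 with vehicle, and Defa24, at 18127 ± 3492 with T3 and 17921 ± 1870 with vehicle, were not called. The 4 goblet cell markers summed to 58442 to 94586 with T3 and 69112 to 85813 with vehicle, and 1 rose. The 4 enteroendocrine markers summed to 7017 to 10472 with T3 and 8517 to 10639 with vehicle, and none was called. Of the 4 tuft cell markers, at 199 to 232 with T3 and 241 to 342 with vehicle, 3 were tested and 2 fell, or 1 in 8 of the alternatives. Beside these marker counts, 24.0% of all genes tested were called higher and 20.8% lower. The part of the marker shifts in the values of the 10 hydrolase genes was not tested.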

How the data were processed

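RNA sequencing of 6 directional libraries was used, per the labels' protocols. The tools of the authors, per the submitters' processing notes, include STAR, Subread and DESeq2, with no version or order stated. The build is mm10, per the file headers. Each deposited value is a normalized score, the reads of a gene after scaling by the authors, rounded to a whole number, and not a raw count: the mean over libraries matched the deposited mean column to within 0.833 in every gene. The log2 fold changes, their errors, the test statistics, p-values and adjusted p-values of the authors' own comparison stand in the same deposited table. Depth before scaling is unknown.

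Genes reaching 10 normalized reads in 3 or more of the 6 libraries (13052) were tested with limma 3.58.1 in R 4.3.3 on log2(value + 1), with a variance trend and no block, and Benjamini-Hochberg adjustment over all of them. Folds are on that scale. The test was also run on simulated data. Ratios used scipy 1.17.1. Promoter windows came from RefSeq (GRCm38.p6), where all 9 genes looked up matched, and transcript words and overlaps from GENCODE M21. No promoter is shown for Mep1b. The genes and lists were chosen with earlier results of these data known. Named are the 10 genes, the called genes with the smallest p in each list (up to 4), and Akp3, Alppl2, Vil1, Prdm1, Cdx2, Hnf4a, Gata4 and Glb1, apart from genes not reported here; others are cell type markers or said to be chosen after their values were seen. Alternatives were other scalings, filters, pseudocounts, thresholds and variance models, the authors' comparison, a replicate block and leaving out each library; those for the count past 2-fold, for genes outside the 10 and for the lists were added after seeing the data. Same-numbered libraries were not treated as pairs.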

Additional observations from a re-analysis of the deposited data

How the results depend on the processing

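The 6 rises among the 10 genes were called under each of the 18 alternatives, with fold changes on the log2 scale of 1.55 to 1.70 for Lct, 1.21 to 1.33 for Sis, 0.97 to 1.19 for Mgam, 0.94 to 1.97 for Alpi, 0.77 to 1.14 for Enpep and 0.77 to 1.09 for Mep1b, the highest of Alpi being its sum with Akp3 and Alppl2. The count called higher by at least 2-fold was 3 to 6 without single libraries, an alternative chosen after seeing the data. The count of falls was 1 with no variance trend, 0 at a threshold of 0.01 and 1 to 3 without single libraries, against 2; the cause was not tested, apart from the stricter threshold. The log2 fold change of Anpep was 0.014 without T3 replicate 2, its lowest T3 library, and -0.37 without T3 replicate 3, its highest. Over all genes 3135 were called higher and 2716 lower, or 53.6% of calls higher, a share of 43.0% after scaling to the upper quartile and 38.8% after scaling to equal totals. At a threshold of 0.01 the lower calls numbered 1753.

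Replicate numbers are shared between the groups, but deviations from the group mean correlated at -0.07, 0.03 and -0.06 in same-numbered libraries. Not every library correlated best with its own number. With 3 libraries per group a weak pairing could be missed, and the labels state none. With a replicate block 2933 genes were called higher and 2472 lower, with 6 and 2 of the 10 genes called higher and lower. The ratios kept their direction in all alternatives. With the replicate block this was fixed in advance, because pairing leaves the difference of the group means unchanged. Genes near the filter of 10 reads are limited by depth, and the 10 genes lie well above it.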
